A study of Mus musculus with 12 samples.

Results

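The 10 immediate early genes Fos, Fosb, Fosl1, Fosl2, Jun, Junb, Jund, Egr1, Egr2 and Ier2 were followed in MLO-Y4 cells across 4 culture conditions. They were chosen by name, as AP-1 and EGR genes together with Ier2, and are 10 of the 19938 genes tested. The choice was made with earlier results of these data known. Shares of the 10 set beside those of all genes are therefore only descriptions. Each is measured by 1 transcript cluster of the Affymetrix Mouse Gene 1.0 ST array, a set of probes summarised to 1 value. MLO-Y4 is a mouse cell line with the dendritic shape of osteocytes, the cells embedded in bone matrix. All cells were grown in the same medium with serum at 37 °C, and after seeding they spent 48 h either in the bore of a superconducting magnet whose field is strong and steeply graded (LG-HMF) or outside it. The μ-g group was levitated at 12 T, the 2-g group was pressed down at 12 T, and the 1-g group lay at 16 T with no net magnetic force. The control group was kept at normal gravity outside the magnet. Each group has 3 arrays, so the precision is limited by 12 arrays in all. These samples are labelled biological replicates. No source used here tells whether each came from a separate culture, so the p-values rest on the spread between these arrays alone, which may be technical. Both the field and the apparent gravity differ from control in set 1 (μ-g v.s. control) and set 2 (2-g v.s. control). In set 3 (1-g v.s. control) the field differs and the apparent gravity does not. The culture site, magnet bore or incubator, differs from control in all of these 3 sets and cannot be told apart from the field. Opposite forces at the same field strength are compared in set 4, which is μ-g v.s. 2-g. In μ-g v.s. 1-g and in 2-g v.s. 1-g both the force and the field (12 T against 16 T) differ and cannot be told apart. As cells were measured in bulk, fewer cells that express a gene and less RNA per cell cannot be told apart.

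AP-1 is a transcription factor made of paired leucine zipper proteins, usually a FOS family member (FOS, FOSB, FOSL1, FOSL2) bound to a JUN family member (JUN, JUNB, JUND), or a pair of JUN proteins. EGR1 and EGR2 are zinc finger factors that bind GC-rich sites, and IER2 is a nuclear protein of the same early response. In bone cells such genes are known for a fast and transient rise after serum, growth factors or mechanical load, carried by MAP kinases that act on serum response factor and its partners, while FOSL1 and FOSL2 can stay up for longer and take part in the differentiation of osteoblasts.

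The windows of 250 bases before the annotated start of transcription were read from RefSeq (GRCm38.p6). Windows were kept for 7 of the 10 genes, all but Fosl1, Egr1 and Ier2. For the 10 genes, windows on the chromosome of Egr1 were left out, so its promoter was not searched. Such windows do count in the shares over all windows. The windows of Jun, Fosl2 and Junb are shown. Among genes with a window, these passed the test in at least 1 comparison with the replicate number as a block, as described later. The windows are Jun on the minus strand (chr4:95052223-95052472), Fosl2 on the plus strand (chr5:32136222-32136471) and Junb on the minus strand (chr8:84978749-84978998), each written 5′ to 3′ with motif matches in capitals.
Jun: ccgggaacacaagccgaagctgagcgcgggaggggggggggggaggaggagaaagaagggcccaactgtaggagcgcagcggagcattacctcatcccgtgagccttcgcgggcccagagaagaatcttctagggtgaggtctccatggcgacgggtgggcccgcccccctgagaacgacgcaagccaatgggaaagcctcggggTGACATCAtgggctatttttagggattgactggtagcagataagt
Fosl2: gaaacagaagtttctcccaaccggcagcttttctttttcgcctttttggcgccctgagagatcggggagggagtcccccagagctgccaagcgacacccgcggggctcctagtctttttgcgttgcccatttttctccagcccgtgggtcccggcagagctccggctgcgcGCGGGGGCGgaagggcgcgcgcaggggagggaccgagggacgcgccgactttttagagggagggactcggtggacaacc
Junb: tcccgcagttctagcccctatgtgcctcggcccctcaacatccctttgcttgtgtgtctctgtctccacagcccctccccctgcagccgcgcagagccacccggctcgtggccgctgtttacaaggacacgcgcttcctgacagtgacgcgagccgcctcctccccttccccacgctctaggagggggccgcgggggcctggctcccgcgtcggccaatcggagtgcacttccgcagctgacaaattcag

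Motifs of AP-1, CRE, EGR and serum response factors were searched on both strands. An AP-1 site, TGANTCA, was in 6.75% of all 32851 windows and in 0 of the 7 genes. A CRE-type site, TGACNTCA, which JUN and ATF2 pairs can bind, was in 7.49% of windows and in 1 of the 7 genes, Jun, where TGACATCA lies 45 bases before the start. An EGR site, GCGNGGGCG, was in 4.7% of windows and in 2 of the 7 genes, Fosl2 at 79 bases and Fosb at 50 bases before the start. A CArG box, the element that serum response factor binds, was in 1.47% of windows and in 1 of the 7 genes, Egr2. The matches shown do not overlap one another, and the window of Junb held none of these letters. The percentages count windows, while a gene counts where any of its windows matched, so the units differ. Egr2 has several windows, some of them overlapping, and not all matched. A match is only a description of the sequence.

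A log2 level here is the deposited value after RMA, and a fold change is a difference between such levels. A gene passed the test where limma gave an adjusted p under 0.05 over all genes. Of the 10 genes, 1 passed in set 4, 1 in 2-g v.s. 1-g, and in both it was Fosl1. None of the 10 passed in set 1, set 2, set 3 or μ-g v.s. 1-g by limma. An unmoderated test, which takes each gene's variance from its own 6 arrays and was adjusted over all genes, passed 0 of the 10 in each of the 6 comparisons. That test passed few genes at all, namely 0 of all genes in set 1, 0 in set 2, 1 in set 3 and 15 in set 4. In μ-g v.s. 1-g it passed 0 and in 2-g v.s. 1-g 8 of all genes, so its 0 of the 10 says little about them. At an unadjusted p under 0.05 by limma, the 10 genes gave 1 in set 1, 4 in set 2, 0 in set 3, 3 in set 4, 0 in μ-g v.s. 1-g and 2 in 2-g v.s. 1-g. Of all genes, 14.0%, 16.7%, 10.8%, 17.2%, 2.31% and 15.3% were at an unadjusted p under 0.05 in these comparisons, in the same order. The share of all genes that passed at the adjusted p was 0.823% in set 1, 3.11% in set 2, 0.321% in set 3, 2.88% in set 4, 0% in μ-g v.s. 1-g and 2.26% in 2-g v.s. 1-g. The F test of limma for any difference among the 4 groups passed 1 of the 10 genes, again Fosl1, against 3.15% of all genes.

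**Figure D1:**
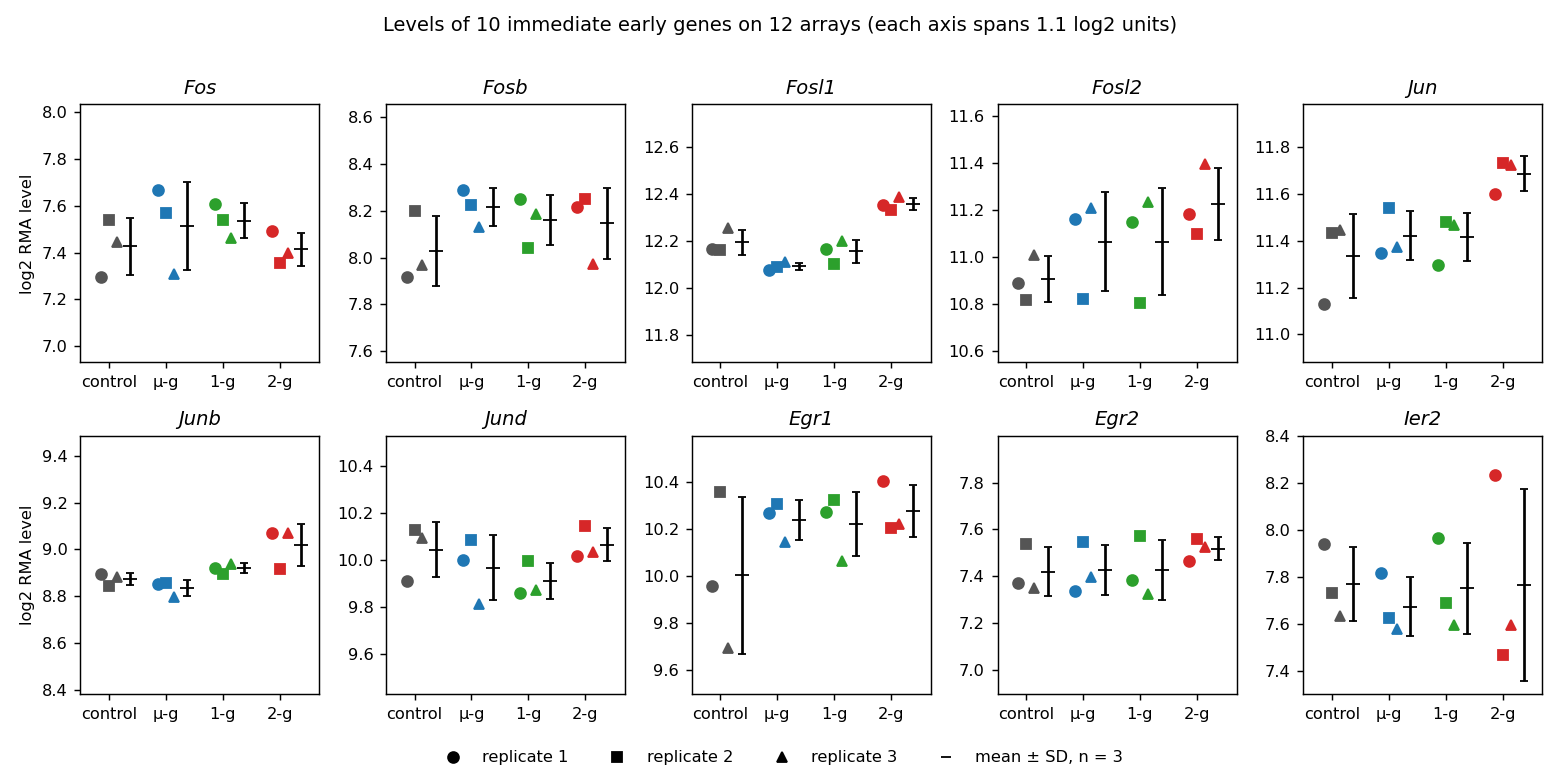
Log2 RMA level (y axis) of the 10 immediate early genes on each of the 12 arrays, by group (x axis), with the shape giving the replicate number and the bar the mean ± SD of 3 arrays. The 3 arrays of 2-g lie above the other 9 for Fosl1 and Jun, and the groups overlap in most other panels.

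Fosl1, which encodes a FOS family protein without the activation domain of FOS, was highest in 2-g. Its log2 level was 12.35, 12.33 and 12.39 in 2-g, 12.17, 12.16 and 12.25 in control, 12.16, 12.10 and 12.20 in 1-g and 12.08, 12.09 and 12.11 in μ-g. The 3 arrays of 2-g were above each of the other 9, and those of μ-g were below the 3 of control and overlapped 1-g only at its lowest array. The means were 12.36 ± 0.027 (SD, n = 3) in 2-g, 12.19 ± 0.052 in control, 12.15 ± 0.049 in 1-g and 12.09 ± 0.016 in μ-g.

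In set 4 Fosl1 was down-regulated in μ-g by 1.20-fold, or −0.27 on the log2 scale (SE 0.045, adjusted p = 0.00909). The call held with each array left out (adjusted p from 0.00999 to 0.0476, the highest without 2-g replicate 3). It was adjusted p = 0.0397 in a fit of only those 6 arrays, and 0.0708 by the unmoderated test, which does not pass. Of all genes, 15 passed that test in set 4.

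In 2-g v.s. 1-g Fosl1 was up-regulated in 2-g by 0.20 (SE 0.045, adjusted p = 0.0404). Without control replicate 3 the adjusted p was 0.0409, and without any other single array the call was lost, with values up to 0.153 without 2-g replicate 3. With only the 6 arrays of those groups it was 0.121, and with each array centred on its median 0.0791. The F test gave adjusted p = 0.0286 for Fosl1. That call was lost without μ-g replicate 1 (0.071), μ-g replicate 3 (0.0622), 2-g replicate 1 (0.0802), 2-g replicate 2 (0.0806) or 2-g replicate 3 (0.133), and with median centring (0.061).

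Neighbours in the order of the Fosl1 levels were closer. For 2-g against control the log2 fold change was 0.16 (SE 0.045, adjusted p = 0.0768), and these arrays did not overlap. Between control and 1-g it was −0.039 for 1-g (95% interval −0.14 to 0.060, adjusted p = 0.847). From 1-g to μ-g it was −0.064 for μ-g (95% interval −0.16 to 0.035). The last 2 of these pairs overlap, so their levels did not differ beyond the spread of the arrays. In set 1 Fosl1 had −0.10 (95% interval −0.20 to −0.0040, adjusted p = 0.334). The spread of Fosl1 within groups was small, with a residual SD of 0.039 that is at the 4.05th percentile of all genes.

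Jun, the main partner of FOS proteins, was also highest in 2-g. Its log2 level was 11.60, 11.73 and 11.72 in 2-g, 11.35, 11.54 and 11.37 in μ-g, 11.30, 11.48 and 11.47 in 1-g and 11.13, 11.43 and 11.45 in control. All 3 arrays of 2-g were above the other 9, and the other 3 groups overlapped one another. Fosl1 and Jun were the 2 of 10 genes with 2-g above all other arrays, which held for 2.59% of all genes. Jun was 1.27-fold higher in set 2, or 0.35 on the log2 scale (SE 0.089, adjusted p = 0.0576), which just misses the threshold. It passed in 6 of the 21 alternatives that give an adjusted p, the block among them, with adjusted p from 0.00444 to 0.0486, and in none of the 12 that leave out 1 array. In 2-g v.s. 1-g Jun had 0.27 (SE 0.089, adjusted p = 0.155), and in set 4 −0.27 (SE 0.089, adjusted p = 0.144). The order of its means was 2-g (11.69 ± 0.074), μ-g (11.42 ± 0.10), 1-g (11.41 ± 0.10) and control (11.34 ± 0.18), and μ-g and 1-g differed by 0.0063 (95% interval −0.19 to 0.20).

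Fosl2 and Junb are the other genes whose 2-g arrays all lay above the control arrays. Fosl2, a FOS family protein known for roles in bone, had log2 levels of 11.18, 11.10 and 11.39 in 2-g, 11.16, 10.82 and 11.21 in μ-g, 11.15, 10.80 and 11.24 in 1-g and 10.89, 10.81 and 11.01 in control. The 2-g arrays overlapped those of μ-g and 1-g. Its log2 fold change in set 2 was 0.32 (SE 0.13, adjusted p = 0.215). Junb, which can restrain JUN in some settings, had 9.07, 8.92 and 9.07 in 2-g, 8.92, 8.90 and 8.94 in 1-g, 8.90, 8.84 and 8.88 in control and 8.85, 8.86 and 8.80 in μ-g. Its 2-g arrays lay above those of control and μ-g and overlapped those of 1-g. The log2 fold change of Junb was −0.18 in set 4 (SE 0.050, adjusted p = 0.0786) and 0.15 in set 2 (SE 0.050, adjusted p = 0.155). Without 2-g replicate 2 the adjusted p of Junb in set 4 was 0.0396, which is the only one of the 12 arrays whose removal made it pass.

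The remaining genes of the AP-1 group did not pass in any comparison. Fos, the first described partner of JUN, lay between 7.30 and 7.67 on the 12 arrays, with group means of 7.54 in 1-g, 7.51 in μ-g, 7.43 in control and 7.41 in 2-g. Fosb, a close relative of FOS, ran from 7.92 to 8.29, and its largest difference was 0.19 in set 1 (SE 0.092, adjusted p = 0.397). Jund, the JUN family member that is expressed most steadily in many cells, ran from 9.81 to 10.14, with −0.13 in set 3 (95% interval −0.31 to 0.039) and 0.15 in 2-g v.s. 1-g (SE 0.079, adjusted p = 0.399). In 2-g v.s. 1-g the groups of Jund did not overlap.

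Egr1, an early zinc finger factor, was most variable in control. Its log2 level was 9.96, 10.36 and 9.69 in control, 10.27, 10.31 and 10.15 in μ-g, 10.28, 10.33 and 10.07 in 1-g and 10.40, 10.20 and 10.22 in 2-g. The control arrays spread beyond both ends of μ-g and 1-g, and control replicate 3 was the lowest of all 12. The differences against control were 0.24 in set 1, 0.27 in set 2 and 0.22 in set 3, each with SE 0.14, and share the same control arrays (adjusted p = 0.481, 0.339 and 0.618). Without control replicate 2, the highest control array, the value in set 2 was 0.45 and passed (adjusted p = 0.0408). Egr2, a relative of Egr1 that also acts in osteoclasts and nerve sheath cells, ran from 7.33 to 7.57, below the median gene on average, and its largest difference was 0.098 in set 2 (95% interval −0.070 to 0.27).

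Ier2 had the widest spread within groups. Its log2 level was 8.23, 7.47 and 7.59 in 2-g, 7.94, 7.73 and 7.63 in control, 7.97, 7.69 and 7.59 in 1-g and 7.82, 7.63 and 7.58 in μ-g. The value of 8.23 in 2-g replicate 1 was the highest of the 12, and 2-g replicate 2 the lowest, so the groups overlap fully. Its difference in set 2 was −0.0031 (95% interval −0.38 to 0.37). The residual SD of Ier2 was 0.25, at the 98.8th percentile of all genes, and those of Egr1 and Fosl2 were at the 96.6th and 95.7th.

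**Figure D2:**
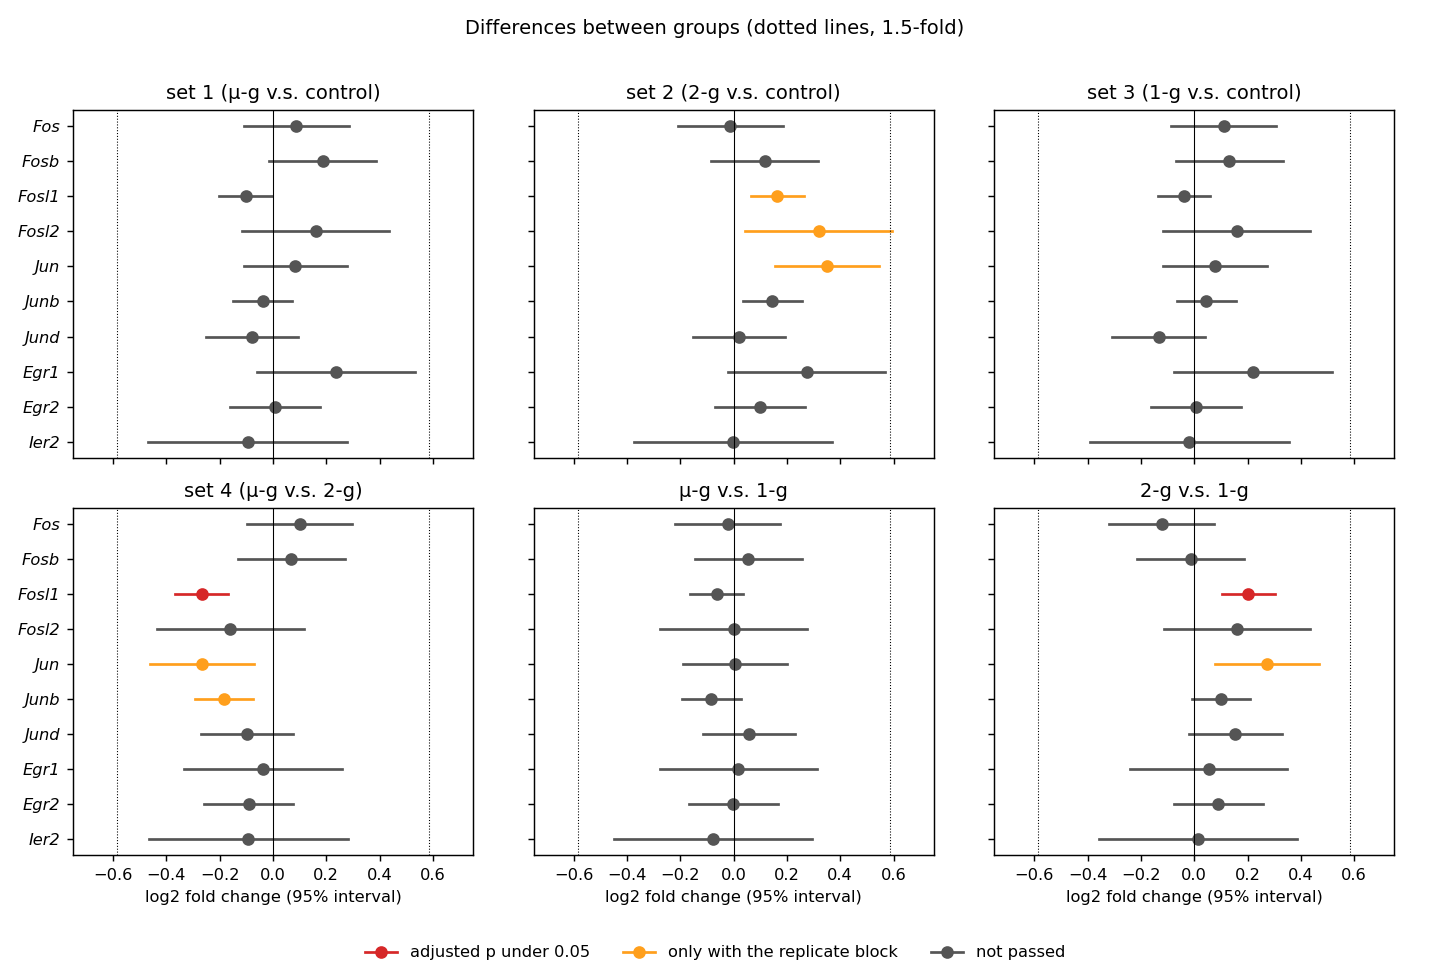
Log2 fold change (x axis) with its 95% interval from limma for the 10 genes (y axis) in the 6 comparisons, with red for an adjusted p under 0.05, orange for one only with the replicate block and dotted lines at 1.5-fold. Fosl1 passes in set 4 and in 2-g v.s. 1-g, and 1 interval, that of Fosl2 in set 2, crosses 1.5-fold.

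The differences were small throughout at 48 h. That was the only time sampled, so an earlier and transient rise was not tested. Of the 60 intervals (10 genes in 6 comparisons), all 60 lay within 2-fold in both directions and 59 within 1.5-fold. The exception was Fosl2 in set 2, at 0.045 to 0.59 on the log2 scale. No mean change reached 1.5-fold, the fold limit that the methods name. The median log2 fold change over the 10 genes was 0.046 in set 1, 0.13 in set 2, 0.062 in set 3, −0.095 in set 4, 0.00031 in μ-g v.s. 1-g and 0.095 in 2-g v.s. 1-g, while the medians of all genes were 0.023, −0.0028, 0.017, 0.029, 0.0056 and −0.023. In set 2 the values of 8 genes were positive and 2 negative, and in set 4 they were 2 and 8. These comparisons share the 2-g arrays.

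Groups without overlap gave a wider count than the adjusted test. In set 1 it was 1 gene (Fosl1) where 17.2% of all genes did so. In set 2 they were 4 (Fosl1, Fosl2, Jun and Junb) where 21.2% did. In set 3 it was 1 (Junb) where 15.0% did. In set 4 they were 3 (Fosl1, Jun and Junb) where 21.1% did. In μ-g v.s. 1-g it was 1 (Junb) where 5.63% did, and in 2-g v.s. 1-g they were 3 (Fosl1, Jun and Jund) where 19.5% did. An exact permutation test of 3 arrays against 3 gives a two-sided p of 0.1 for each of these, the smallest it can give.

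Several of the 10 genes moved with the replicate number, which recurs in every group. This was seen in the values first and then tested. Fosl2 was lowest in replicate 2 and highest in replicate 3 in 4 of 4 groups. Ier2 was highest in replicate 1, Egr2 and Jund in replicate 2, and Fosl1 in replicate 3, each in 4 of 4 groups. Jun was lowest in replicate 1 in 4 of 4 groups. In all, 6 of the 10 genes had the same number at the top or the bottom in all groups, as did 24.6% of all genes. A limma F test of the replicate number, adjusted over all genes, passed for Fosl2 (adjusted p = 0.0101), Ier2 (0.019), Egr2 (0.0417) and Jun (0.0438), or 4 of 10 genes against 10.1% of all genes. No source used here tells what the numbers mean, and what moves with them was not tested.

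**Figure D3:**
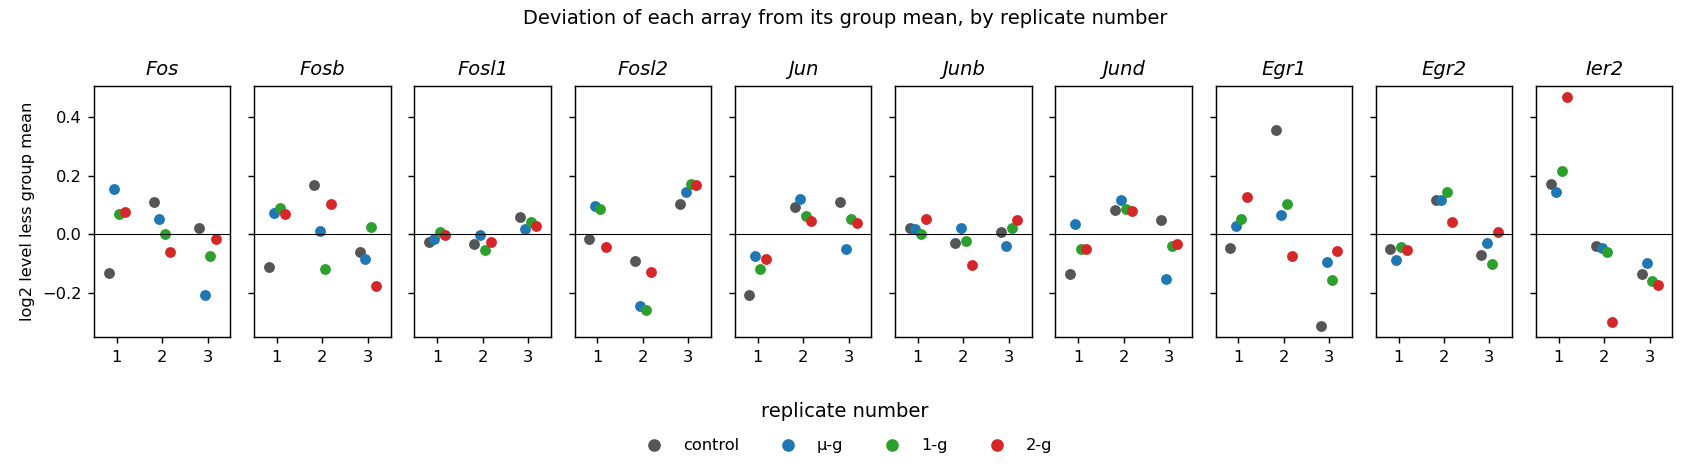
Log2 level of each array less the mean of its group (y axis) by replicate number (x axis), 1 panel a gene and 1 point an array, coloured by group. Replicate 2 lies lowest for Fosl2, replicate 1 lies lowest for Jun and highest for Ier2, and replicate 2 lies highest for Egr2 and Jund in all 4 groups.

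With that number as a block, more of the 10 genes passed in the comparisons with 2-g. In set 2 there were 3, all higher in 2-g, namely Jun (adjusted p = 0.00444), Fosl2 (0.0106) and Fosl1 (0.0278), where 9.38% of all genes passed. In set 4 there were 3, all lower in μ-g, namely Fosl1 (0.00277), Jun (0.0153) and Junb (0.037), where 9.18% of all genes passed. In 2-g v.s. 1-g there were 2, both higher in 2-g, namely Fosl1 (0.0128) and Jun (0.0158), where 7.57% passed. With the block 0 passed in set 3 (1.77% of all genes) and 0 in μ-g v.s. 1-g (0% of all genes). The blocked F test passed 3, Fosl1 (0.00912), Jun (0.0112) and Fosl2 (0.0353), against 11.7% of all genes. The residual SD of Fosl2 was 0.18 without the block and 0.081 with it, and that of Jun 0.12 and 0.067. In set 1 the numbers do not pair the arrays by the rule used, and the block passed 0 of the 10 there, where 4.70% of all genes passed.

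The 10 genes did not move as 1 group over the 12 arrays. Of 45 pairs of genes, 31 had a positive correlation, with a median r of 0.168, and within groups the median was 0.024. The highest was between Fosl1 and Junb (r = 0.815) and the lowest between Fos and Fosl1 (r = −0.397). These are descriptions over arrays that share groups and replicate numbers. The 3 genes most like Fosl1 among 9968 genes above the median level were Phospho1 (r = 0.948), F730043M19Rik (r = 0.939) and Sertad1 (r = 0.939). Phospho1, a phosphatase of matrix mineralisation, averaged 9.28 ± 0.13 in 2-g, 8.92 ± 0.13 in control, 8.80 ± 0.18 in 1-g and 8.71 ± 0.058 in μ-g, the order seen for Fosl1. F730043M19Rik had the same order, from 8.50 ± 0.053 in 2-g to 7.65 ± 0.14 in μ-g. Sertad1, a regulator of the cell cycle, ran from 9.10 ± 0.061 in 2-g to 8.83 ± 0.022 in μ-g. These 3 genes were picked by r with Fosl1 over the same 12 arrays, so a like order of groups largely follows from the choice.

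Other genes of the early response were counted from a list of 32 genes, all measured. In set 1, 0 rose, 2 fell (Maff and Rhob) and 30 did not pass. At an unadjusted p under 0.05 there were 1 higher and 9 lower (14.0% of all genes), and with the block 0 rose and 5 fell. In set 2 none passed by limma, with 6 higher and 4 lower at an unadjusted p under 0.05 (16.7% of all genes), and with the block 3 rose and 3 fell. In set 3 none passed, with 1 higher and 8 lower at an unadjusted p (10.8% of all genes), and with the block 0 rose and 4 fell. In set 4, 2 rose (Nr4a1 and Plk3), 2 fell (Ccn2 and Maff) and 28 did not pass, and with the block 2 rose and 7 fell. At an unadjusted p, 4 were higher and 12 lower in set 4 (17.2% of all genes). In μ-g v.s. 1-g none passed, with 1 higher and 0 lower at an unadjusted p (2.31% of all genes). In 2-g v.s. 1-g, 1 rose (Ccn2), 2 fell (Nr4a1 and Plk3) and 29 did not pass, and with the block 5 rose and 4 fell. At an unadjusted p, 11 were higher and 4 lower in 2-g v.s. 1-g (15.3% of all genes). Over the list the median log2 fold change was −0.043 in set 1, 0.0084 in set 2, −0.034 in set 3, −0.12 in set 4, −0.012 in μ-g v.s. 1-g and 0.12 in 2-g v.s. 1-g, beside 0.023, −0.0028, 0.017, 0.029, 0.0056 and −0.023 for all genes. The medians of the next lists are given in this order and read against the same values. With the block, 4.70%, 9.38%, 1.77%, 9.18%, 0% and 7.57% of all genes passed, in this order. The block counts of this and the next lists are read against these shares.

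Ccn2, a matricellular protein induced by mechanical load, had a mean log2 level of 11.75 in 2-g, 11.51 in control, 11.10 in 1-g and 11.12 in μ-g. It fell by 0.63 in set 4 (SE 0.097, adjusted p = 0.00517). In 2-g v.s. 1-g it rose by 0.65 (SE 0.097, adjusted p = 0.00469), and both calls held with each array left out (highest 0.0308 and 0.0307). Nr4a1, an orphan nuclear receptor, went the other way. Its log2 fold change was 0.54 in set 4 (SE 0.10, adjusted p = 0.0173) and −0.56 in 2-g v.s. 1-g (adjusted p = 0.0172). The first of these calls was lost without μ-g replicate 3, 2-g replicate 1 or 2-g replicate 2 (up to 0.075), and the other without 1-g replicate 3, 2-g replicate 1 or 2-g replicate 2 (up to 0.0696).

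Plk3, a stress-responsive kinase, had 0.49 in set 4 (adjusted p = 0.0349) and −0.51 in 2-g v.s. 1-g (adjusted p = 0.031), and each call was lost without any 1 of 6 arrays (up to 0.152 and 0.119). Maff, a small MAF protein, had −0.44 in set 1 (adjusted p = 0.0424), lost without any 1 of the 12 arrays (0.0566 to 0.138), and −0.45 in set 4 (adjusted p = 0.0188), lost without any 1 of the 3 arrays of 2-g (up to 0.0676). Rhob, a small GTPase of the actin cytoskeleton, had −0.47 in set 1 (adjusted p = 0.0405), which was lost without any 1 of 9 arrays (up to 0.158). These named genes are members of the early response in name, and they changed in both directions. Over the list, genes at an unadjusted p under 0.05 were mostly lower in set 1, set 3 and set 4. They were mostly higher in 2-g v.s. 1-g and more evenly split in set 2. These comparisons share arrays.

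The partners of FOS and JUN in AP-1 pairs were 15 measured of 16 listed. Maff was the 1 gene to pass, lower in set 1 and in set 4, and in the other 4 comparisons none passed by limma. At an unadjusted p under 0.05 there were 1 higher and 4 lower in set 2, 0 and 2 in set 3, 0 and 0 in μ-g v.s. 1-g and 2 and 3 in 2-g v.s. 1-g, beside 16.7%, 10.8%, 2.31% and 15.3% of all genes. With the block 2 fell in set 2 and 1 in set 3, 2 rose and 1 fell in set 4, and 1 rose and 1 fell in 2-g v.s. 1-g. Their medians in the 6 comparisons were −0.0037, −0.093, −0.026, 0.040, 0.011 and −0.060.

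Upstream kinases and serum response factors were 29 measured of 37 listed. In set 2, 2 rose (Map2k1 and Map3k1), 1 fell (Map2k3) and 26 did not pass. In set 4, 0 rose, 2 fell (Map2k1 and Map3k1) and 27 did not pass, and with the block 3 rose and 2 fell. In 2-g v.s. 1-g, 2 rose (Map2k1 and Map3k1), 1 fell (Map2k3) and 26 did not pass. None passed in set 1, set 3 or μ-g v.s. 1-g by limma, with 7 higher and 1 lower, 2 higher and 1 lower, and 0 and 0 at an unadjusted p under 0.05, beside 14.0%, 10.8% and 2.31% of all genes. Their medians in the 6 comparisons were 0.076, 0.0018, 0.032, 0.061, 0.015 and −0.023.

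Map2k1, which encodes the kinase MEK1 that activates ERK, had a mean log2 level of 11.05 in 2-g, 10.73 in control, 10.57 in μ-g and 10.56 in 1-g. Its log2 fold change was −0.48 in set 4 (SE 0.068, adjusted p = 0.00315) and 0.49 in 2-g v.s. 1-g (SE 0.068, adjusted p = 0.00328), and both calls held with each array left out (highest 0.0199 and 0.0194). In set 2 it was 0.31 (adjusted p = 0.0304), a call lost without any 1 of 5 arrays (up to 0.0931). Map3k1, a kinase at the head of the JNK branch, had 0.41 in set 2 (SE 0.060, adjusted p = 0.00606), which held with each array left out (highest 0.036). It had −0.27 in set 4 (adjusted p = 0.0359), lost without any 1 of 6 arrays (up to 0.13), and 0.34 in 2-g v.s. 1-g (adjusted p = 0.0141), lost without 1-g replicate 3 or 2-g replicate 3 (up to 0.0643). Map2k3, a kinase that activates p38, had −0.25 in set 2 (adjusted p = 0.0244) and −0.23 in 2-g v.s. 1-g (adjusted p = 0.0452), lost without any 1 of 5 and of 11 arrays (up to 0.105 and 0.152).

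Feedback inhibitors were 21 of 21 measured. In set 2, 2 rose (Nab2 and Dusp10), 1 fell (Dusp5) and 18 did not pass. In set 3, 1 rose (Spry4). In set 4, 1 fell (Dusp10), and with the block 1 rose and 2 fell. In 2-g v.s. 1-g, 1 rose (Dusp10), and with the block 1 rose and 2 fell. None passed in set 1 or μ-g v.s. 1-g by limma, with 5 higher and 2 lower, and 0 and 0, at an unadjusted p under 0.05, beside 14.0% and 2.31% of all genes. Their medians in the 6 comparisons were 0.044, 0.031, 0.088, −0.0068, 0.0046 and 0.026.

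Nab2, a corepressor of EGR1 that is itself an EGR target, had 0.27 in set 2 (SE 0.055, adjusted p = 0.0228), lost without 2-g replicate 3, control replicate 1 or control replicate 2 (up to 0.106). Dusp10, a phosphatase of p38 and JNK, had 0.19 in set 2 (adjusted p = 0.0428), −0.22 in set 4 (adjusted p = 0.0232) and 0.23 in 2-g v.s. 1-g (adjusted p = 0.0237), lost without any 1 of 12, 4 and 4 arrays (up to 0.15, 0.0825 and 0.0932). Dusp5, a nuclear phosphatase of ERK, had −0.33 in set 2 (adjusted p = 0.0199), lost without 2-g replicate 2, 2-g replicate 3, control replicate 1 or control replicate 3 (up to 0.0841). Spry4, an inhibitor of growth factor signalling, had 0.34 in set 3 (adjusted p = 0.0416), lost without any 1 of the 12 arrays (0.0554 to 0.158).

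Known targets of AP-1 and EGR proteins were 22 measured of 28 listed. In set 2, 1 rose (Nab2), 1 fell (Il6) and 20 did not pass, and with the block 2 rose and 3 fell. In set 4, 2 rose (Fgf2 and Mmp9), 0 fell and 20 did not pass, and with the block 4 rose and 3 fell. None passed in set 1, set 3, μ-g v.s. 1-g or 2-g v.s. 1-g by limma, with 2 higher and 1 lower, 4 and 2, 0 and 0, and 4 and 8 at an unadjusted p under 0.05, beside 14.0%, 10.8%, 2.31% and 15.3% of all genes. With the block 1 fell in set 3 and 3 rose and 4 fell in 2-g v.s. 1-g. Their medians in the 6 comparisons were −0.0052, −0.041, −0.031, 0.064, 0.0039 and −0.052. Il6, a cytokine with AP-1 sites in its promoter, had −0.29 in set 2 (SE 0.060, adjusted p = 0.0246), lost without any 1 of the 6 arrays compared (up to 0.0864). Fgf2, a growth factor, had 0.50 in set 4 (SE 0.12, adjusted p = 0.0417), lost without any 1 of 8 arrays (up to 0.165). Mmp9, a gelatinase, had 0.52 in set 4 (SE 0.12, adjusted p = 0.0452), lost without any 1 of 10 arrays (up to 0.139).

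**Figure D4:**
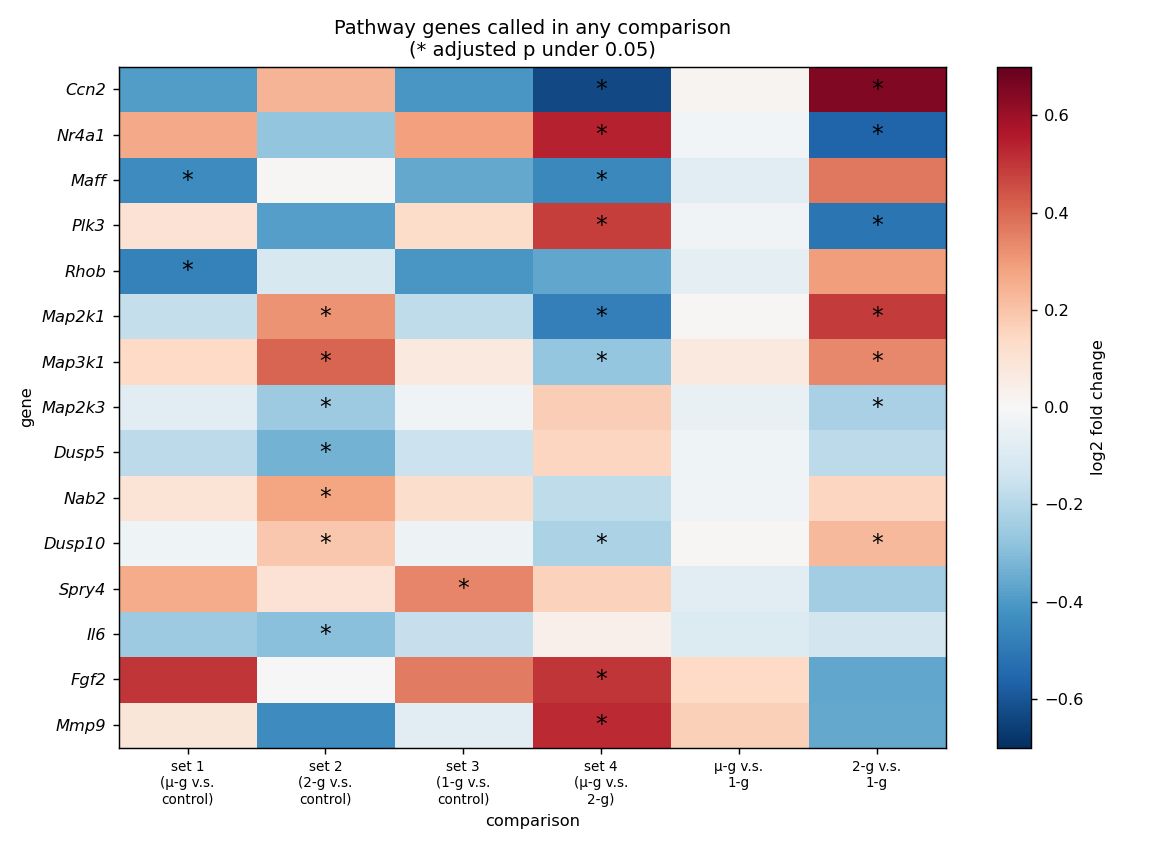
Log2 fold change (colour) of the pathway genes outside the 10 (y axis) with an adjusted p under 0.05 in at least 1 of the 6 comparisons (x axis), with an asterisk where a comparison passed. Ccn2, Map2k1 and Map3k1 are red in 2-g v.s. 1-g and blue in set 4, and the column of μ-g v.s. 1-g has no asterisk.

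The array medians ran from 7.04 to 7.12 on the log2 scale, and no pair of arrays was identical. Of 7 osteocyte markers, Pdpn (12.22) and Gja1 (12.12) had mean log2 levels above the median over all genes (7.504), and those of Dmp1, Phex, Sost, Mepe and Fgf23 were below it, from 5.11 to 7.30. Probes differ in their response, so these levels do not rank the genes or show that one is absent. None of the 7 passed in any comparison (smallest adjusted p = 0.161). Of markers of other cell types, 1 of 4 osteoblast markers (Col1a1) and 1 of 6 macrophage markers (Cd68) passed in at least 1 comparison, and 0 of 4 endothelial and 0 of 4 adipocyte markers. Mean levels above the same median were found for 2 of 4 osteoblast, 1 of 6 macrophage, 0 of 4 endothelial and 1 of 4 adipocyte markers. The mean over the macrophage markers was 6.74 to 6.84 in 2-g and 6.81 to 6.99 in the other groups, and over the osteoblast markers 8.25 to 8.32 and 8.03 to 8.29, and their part in the values of the 10 genes was not tested.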

How the data were processed

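RNA of MLO-Y4 cells of 4 groups was measured on 12 Affymetrix arrays. The authors normalized the intensities by RMA, and the deposited log2 values cover 28856 transcript clusters. Background correction and probe summary are those of the authors. Clusters were named through the platform table, and 19938 genes with 1 symbol were tested, by the cluster with the highest mean where a gene has several. Group means were fitted to all clusters with limma 3.58.1 in R 4.3.3 (8 residual and 3.90 prior degrees of freedom), with Benjamini-Hochberg adjustment over the genes. The fit was also run on simulated data whose noise was independent between arrays. Those data held no effect of the replicate number, so they do not test the fit where such an effect is present. The genes and lists were chosen with earlier results of these data known.

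Named genes are the 10, each list gene with an adjusted p under 0.05 in any comparison, and the 3 genes most like Fosl1. Deviations from group means correlated on average at 0.342 for arrays of different groups that share a number. For arrays of different groups with different numbers the mean was −0.171. As deviations cancel within each group, the second mean largely follows from the first and adds no evidence of pairing. Every same-numbered pair was above 0.1 in all comparisons but set 1 (0.0179 for replicate 3). The pairing comes from these values alone. Alternatives were the 6 arrays compared, the replicate block, genes above the median gene (7.504), median centring, quantile normalization, an intensity trend with robust prior, the mean of clusters, unadjusted P with 1.5-fold, an unmoderated equal-variance t-test and each array left out. A variance prior from the genes with 1 symbol was added after seeing the data. RefSeq windows (GRCm38.p6) gave the sequences.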

Additional observations from a re-analysis of the deposited data

Results flagged for a closer look

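The effect of μ-g on Fosl1 and that of 2-g, each against control, differed by −0.27 on the log2 scale, and the effects of 2-g and 1-g differed by 0.20. These are the values of set 4 and of 2-g v.s. 1-g, since the control arrays cancel, and limma gave adjusted p = 0.00909 and 0.0404. Fosl1 in μ-g was lower than control in 3 of 3 arrays and in 2-g higher in 3 of 3. Groups that do not overlap were also found for 17.2% of all genes in set 1 and 21.2% in set 2. Neither difference of Fosl1 from control passed by limma (adjusted p = 0.334 in set 1 and 0.0768 in set 2). The same 3 arrays of 2-g enter both differences.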

How the results depend on the processing

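The 60 fold changes of the 10 genes were computed under 22 settings, 1308 values in all, and no called value changed sign, while 46 values that did not pass did so. With the replicate block, 3 of the 10 genes passed in set 2 (0 without it), 3 in set 4 (1 without it), 2 in 2-g v.s. 1-g (1 without it) and 3 in the F test (1 without it), and the block changed no other count. In set 2, 1 gene (Jun) passed with genes above the median gene, median centring, quantile normalization, the intensity trend and the added prior. With median centring 0 passed in 2-g v.s. 1-g and 0 in the F test. In 2-g v.s. 1-g 0 passed in a fit of only its 6 arrays. Under unadjusted P with 1.5-fold, and by the unmoderated t-test, 0 passed in set 4 and in 2-g v.s. 1-g. Leaving out 1 array gave 0 in set 1, set 3 and μ-g v.s. 1-g, 0 to 1 in set 2 (Egr1 without control replicate 2), 1 to 2 in set 4 (Fosl1, and Junb without 2-g replicate 2), 0 to 1 in 2-g v.s. 1-g and 0 to 1 in the F test. Some settings use fewer arrays, and the causes of the changed counts were not tested. The filter left out Fos and Egr2, and for the F test the 6-array fit, the t-test and the fold change rule were not run. The number of arrays, 3 per group, limits the precision.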
